A study of Mus musculus with 12 samples.

Results

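Acute-phase and neutrophil-type secreted proteins were followed through 10 genes taken by symbol: Slpi, Lcn2, Chil1, Ltf, Saa3, Saa1, Saa2, Hp, S100a8 and S100a9. They were listed as acute-phase and antimicrobial products that mammary epithelium can make and are 10 of 35521 genes in the transcript tables. RNA was sequenced from 4T1 cells, a mammary carcinoma line of BALB/c mice, in 12 libraries that fell into 3 groups of 4. Tu-Gr1+CD11b+–primed 4T1 cells had shared medium for 48 hours with Gr1+ cells taken from tumors of mice bearing 4T1 tumors, and Spl-Gr1+CD11b+–primed 4T1 cells with Gr1+ cells from the spleens of such mice. Gr1+ cells were isolated on day 21 after tumor injection by the labels, whereas the study's methods give a later day, and were kept apart from the tumor cells by a Transwell membrane with 0.4 µm pores. Parental 4T1 cells had no Gr1+ cells beside them. All 3 groups are 1 cell line in culture, with no genetic change named, and the labels do not say whether the 4 replicates of a group used Gr1+ cells of different mice, so that p-values measure the spread between these libraries, which may be technical. Library totals were 24566183 to 31637755 estimated reads, with a median of 27277534.

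Acute-phase proteins are secreted in larger amounts during infection and injury, most of all by the liver but also by epithelia, under signals such as IL-6, IL-1 and oncostatin M that act through STAT3, NF-kappaB and C/EBP factors. Neutrophils carry several of the same proteins ready-made in their granules or cytosol, so that lipocalin 2, lactoferrin, haptoglobin and the S100a8/S100a9 pair serve both as tissue signs of inflammation and as neutrophil products. Many of them limit microbes by withholding iron, zinc or manganese, or restrain the proteases that neutrophils release.

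The short upstream sequences that hold motif matches are shown so that the members can be compared in the letters that C/EBP, STAT, NF-kappaB and interferon-response factors are known to bind. The 250 bases upstream of the RefSeq start site (GRCm38.p6) were searched on both strands for TTGCNNAA (a C/EBP-type pattern), TTCNNNGAA (STAT-type), GGGA followed after 3 bases by TCC (NF-kappaB-type) and GAAA followed after 2 bases by GAAA (interferon-response-type). RefSeq promoters were found for 9 members, all but Hp. The C/EBP-type letters were present in 7 of 9, against 9.56% of 32851 promoters searched in the same way. Saa1 and Saa2 hold the same match in nearly the same sequence, so these matches are not independent. Saa1, Saa2 and S100a9 were also among the members with too few counts to test. The interferon-response-type letters were present in Saa3 alone, against 2.98% of promoters. The STAT-type letters (7.02% of promoters) and the NF-kappaB-type letters (3.86%) were present in none of the 9, which says only that these letters are not in these windows. Neither Chil1 nor S100a8 held any of the 4 patterns. Each sequence is written 5′ to 3′ on the strand of its gene, with the matches in capitals.
Lcn2: gcccttcctgTTGCTCAAccttgcacag
Slpi: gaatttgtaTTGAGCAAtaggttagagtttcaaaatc
Ltf: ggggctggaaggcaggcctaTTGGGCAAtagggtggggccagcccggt
Saa3: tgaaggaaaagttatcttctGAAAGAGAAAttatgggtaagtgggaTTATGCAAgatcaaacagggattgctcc
Saa1: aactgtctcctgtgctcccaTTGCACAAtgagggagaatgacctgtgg
Saa2: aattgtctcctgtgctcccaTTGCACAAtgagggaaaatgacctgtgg
S100a9: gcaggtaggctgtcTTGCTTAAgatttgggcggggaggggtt
The Lcn2 sequence lay at chr2:32387938-32387965 on the minus strand, within an annotated exon of another Lcn2 transcript. Slpi lay at chr2:164356721-164356757 on the minus strand, and Ltf at chr9:111019197-111019244 on the plus strand. The serum amyloid A genes are neighbours, with Saa3 at chr7:46715748-46715821 and Saa1 at chr7:46743135-46743182, both on the minus strand, and Saa2 at chr7:46751630-46751677 on the plus strand. S100a9 lay at chr3:90695930-90695971 on the minus strand. The long first capital run in Saa3 is the interferon-response-type match and every other capital run is a C/EBP-type match. A match is a description of letters and was not tested as a binding site.

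The members differed widely in level in 4T1 cells. On the per-length scale of TPM, which allows levels of different genes to be set beside each other, Slpi was the highest member in Tu-Gr1+CD11b+–primed cells, with a mean level of 2526 TPM (SD 318, n = 4), rank 42 of 35521 genes. Lcn2 followed with a mean level of 2043 TPM (SD 254, n = 4), rank 62. The next member on the TPM scale was S100a8 at a mean level of 16.3 TPM (SD 5.14, n = 4), followed by Saa3 at 14.4 TPM (SD 3.50), Chil1 at 9.68 TPM (SD 2.28) and Ltf at 5.74 TPM (SD 1.67). S100a8 and Saa3 did not differ beyond these SDs. Saa2, Hp and Saa1 had mean levels of 0.47, 0.42 and 0.21 TPM, and S100a9 was at 0 in these 4 libraries. In parental cells Slpi (1033 TPM, SD 112, n = 4) and Lcn2 (896 TPM, SD 63.6) were again the highest members, and S100a8 stood at 7.76 TPM. Slpi and Lcn2 were thus abundant before any priming, whereas the other members were weakly expressed.

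Of the 10 members, 6 had enough counts to be tested: Slpi, Lcn2, Chil1, Ltf, Saa3 and S100a8. Between Tu- and Spl-Gr1+CD11b+–primed cells, the comparison that asks what priming by tumor-derived rather than spleen-derived Gr1+ cells does, 6 of 6 were higher in Tu-primed cells and 0 lower, where 4.66% of the 12555 genes tested were called higher and 2.97% lower (edgeR quasi-likelihood test, Benjamini-Hochberg adjusted p under 0.05). The median log2 fold change of the 6 was 1.12, beside -0.01 over all genes tested, and 4 of the 6 passed a log2 fold change of 1 as well, as 1.27% of genes did. Against parental cells the 6 members were also called higher in Tu-primed cells, but so were 31.2% of all genes, with 28% lower. Their median log2 fold change there was 0.98, beside 0.02 over all genes, and 3 of the 6 passed a log2 fold change of 1, as 6.9% of genes did. In Spl-primed against parental cells 0 of 6 were higher, where 25.7% of genes were, and 1 was lower, Lcn2, where 22.5% of genes were. The members' median there was -0.01, beside 0.02 over all genes. Counts of 0 were also 0 at an unadjusted p under 0.05 and with DESeq2. Each group entered 2 of these comparisons, so they are not independent.

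**Figure D1:**
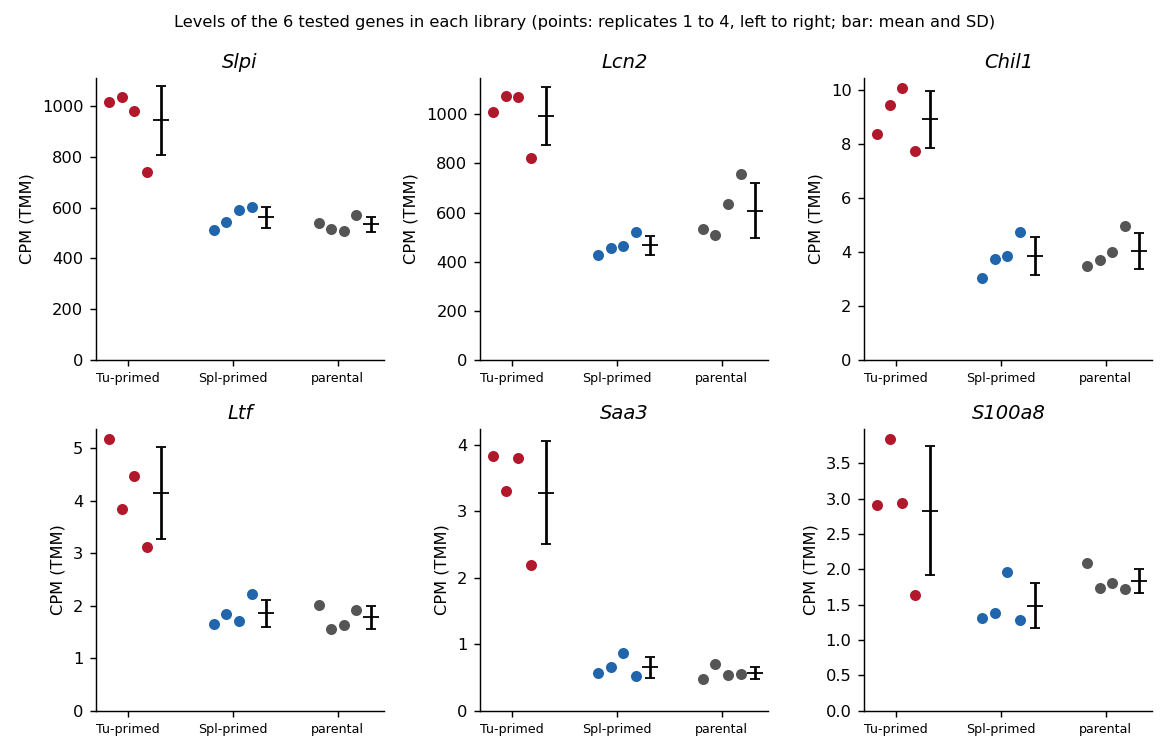
Level of each tested gene in every library, in CPM after TMM scaling (vertical axis from 0), for Tu-primed, Spl-primed and parental 4T1 cells. Points are the 4 replicates of a group and the bar is their mean and SD; Tu-primed points lie above every other point for 5 genes, and for S100a8 the lowest Tu-primed point lies among the others.

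Levels within a gene are given in CPM, its counts relative to the library total after TMM scaling. On this scale, in 5 of the 6 tested members, all but S100a8, every Tu-primed library lay above every Spl-primed library, which held for 8.51% of genes tested, and above every parental library, which held for 28.6%. Slpi, the secretory leukocyte protease inhibitor that blocks neutrophil elastase, read 1014, 1037, 981 and 741 CPM in Tu-primed replicates 1 to 4. It read 512, 544, 591 and 601 CPM in Spl-primed cells and 541, 516, 507 and 571 CPM in parental cells. In CPM the Tu-primed libraries lay above all 8 others, and the Spl-primed and parental libraries overlapped. In TPM the Spl-primed libraries, at 1324 to 1669 TPM, lay above the parental ones, at 897 to 1150 TPM, a difference of 0.56 log2 units, or 0.17 less the median shift over all genes. The log2 fold change of Slpi was 0.75 (SE 0.09, adjusted p = 0.000179) over Spl-primed and 0.82 (SE 0.09, adjusted p = 7.86e-06) over parental cells. Between Spl-primed and parental cells it was 0.07, with a 95% interval of -0.14 to 0.29.

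Lcn2 encodes lipocalin 2, which binds bacterial siderophores and so withholds iron. Its levels in Tu-primed cells were 1010, 1075, 1069 and 824 CPM. Spl-primed cells read 429, 457, 462 and 520 CPM, and parental cells 533, 508, 633 and 758 CPM. The Tu-primed libraries did not overlap with either other group, while the highest Spl-primed library lay above the lowest parental one. Lcn2 was higher in Tu-primed cells by a log2 fold change of 1.09 (SE 0.12, adjusted p = 6.81e-05) against Spl-primed and of 0.71 (SE 0.12, adjusted p = 0.000172) against parental cells. It fell by 0.38 on the log2 scale (SE 0.12, adjusted p = 0.0162) in Spl-primed against parental cells, the 1 call among the members in that comparison. That fall rested on parental replicate 4: without it the log2 fold change was -0.26 and the adjusted p 0.0547 (edgeR). On the TPM scale the Spl-primed minus parental difference of Lcn2 was 0.04 log2 units, where the median gene differed by 0.39, and relative to that median it was -0.35.

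Chil1 encodes the secreted chitinase-like protein YKL-40 (BRP-39 in mice). Tu-primed cells read 8.37, 9.44, 10.1 and 7.74 CPM. Spl-primed cells read 3.01, 3.74, 3.85 and 4.73 CPM, and parental cells 3.47, 3.71, 3.98 and 4.96 CPM. All 4 Tu-primed libraries lay above the other 8, and the other groups had nearly the same range. The log2 fold change was 1.22 (SE 0.15, adjusted p = 0.000132) against Spl-primed and 1.15 (SE 0.15, adjusted p = 1.98e-05) against parental cells. Between Spl-primed and parental cells it was -0.07 (95% interval -0.42 to 0.28).

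Ltf encodes lactoferrin, the iron-binding protein of milk and of neutrophil secondary granules. Its levels were 5.18, 3.84, 4.47 and 3.12 CPM in Tu-primed cells. They were 1.66, 1.85, 1.71 and 2.23 CPM in Spl-primed cells and 2.02, 1.57, 1.64 and 1.92 CPM in parental cells. In CPM the lowest Tu-primed library again lay above the highest of the other 8, whereas in TPM the groups overlapped, with 3.51 TPM in the lowest Tu-primed library against up to 4.41 TPM in Spl-primed and up to 5.68 TPM in parental libraries. Ltf was higher by a log2 fold change of 1.16 (SE 0.17, adjusted p = 0.00082) over Spl-primed and of 1.21 (SE 0.18, adjusted p = 5.8e-05) over parental cells. The call against parental cells was lost when transcript lengths entered the fit as offsets, at a log2 fold change of 0.60 and an adjusted p of 0.301 (DESeq2). Against Spl-primed cells the call held under all 24 alternatives (edgeR, DESeq2 or limma-voom), but with an adjusted p of up to 0.0453.

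Saa3 encodes the serum amyloid A that mice make mainly outside the liver, an apolipoprotein of the acute phase. Its counts were 108, 85, 109 and 63 in Tu-primed replicates 1 to 4. They were 18, 18, 24 and 15 in Spl-primed and 14, 17, 13 and 14 in parental cells. The lowest Tu-primed library held more than 2 times the counts of the highest other library. In CPM, Tu-primed cells read 3.83, 3.30, 3.81 and 2.19, against at most 0.872 in Spl-primed and at most 0.700 in parental cells. The log2 fold change was 2.33 (SE 0.23, adjusted p = 3.72e-05) against Spl-primed and 2.53 (SE 0.24, adjusted p = 1.96e-06) against parental cells, the largest of the 6 tested members in both comparisons. Between Spl-primed and parental cells it was 0.20 (95% interval -0.42 to 0.82).

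S100a8 encodes a calcium-binding subunit of calprotectin, which sequesters zinc and manganese and is built with S100a9. Its levels in Tu-primed cells were 2.91, 3.84, 2.94 and 1.63 CPM. Spl-primed cells read 1.32, 1.38, 1.96 and 1.29 CPM, and parental cells 2.09, 1.73, 1.80 and 1.72 CPM. In 3 Tu-primed libraries S100a8 was above the other groups, but replicate 4 lay below every parental library and within the Spl-primed range. The log2 fold change was 0.93 (SE 0.24, adjusted p = 0.027) against Spl-primed and 0.62 (SE 0.23, adjusted p = 0.0345) against parental cells. These calls were the least firm: against Spl-primed cells the adjusted p rose to between 0.0642 and 0.104 (edgeR) when Tu-primed replicate 1, 2 or 3 or Spl-primed replicate 1, 2 or 4 was left out, and against parental cells to between 0.0657 and 0.131 without Tu-primed replicate 1, 2 or 3 or parental replicate 2, 3 or 4. Without Tu-primed replicate 4 the log2 fold changes were 1.12 (adjusted p = 0.00229) and 0.81 (adjusted p = 0.00287).

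**Figure D2:**
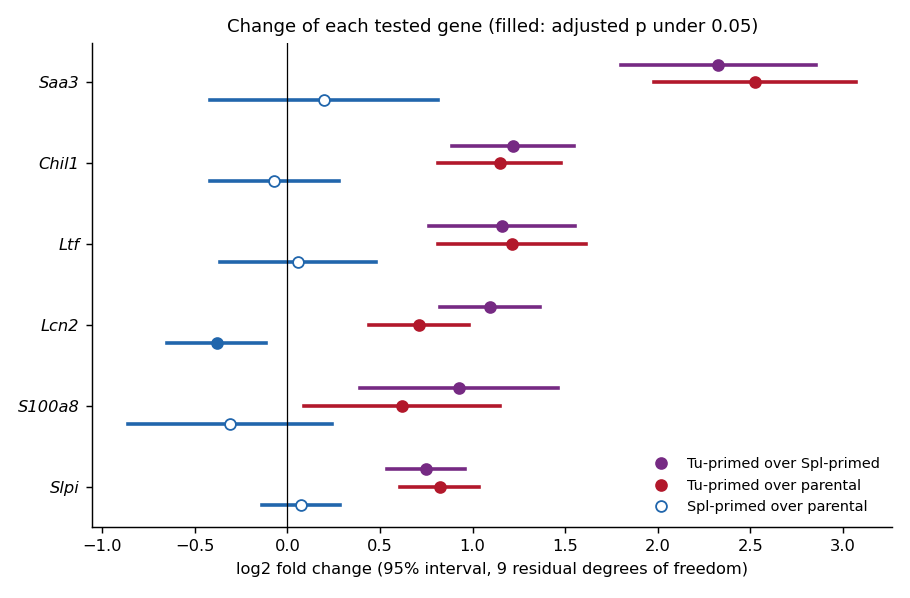
Log2 fold change of each tested gene with its 95% interval, for Tu-primed over Spl-primed, Tu-primed over parental and Spl-primed over parental cells; filled points have an adjusted p under 0.05 (edgeR). Saa3 changed most, at 2.33 and 2.53, and Lcn2 was the gene with a filled point below 0.

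The remaining 4 members, Saa1, Saa2, Hp and S100a9, held too few counts for the test. Saa1 and Saa2 encode the circulating serum amyloid A proteins, which come mainly from the liver. Saa1 counts were 3, 1, 0 and 3 in Tu-primed libraries and 0 in all 8 others. With a floor of 3 counts over the group in place of 0, the 7 summed counts gave a ratio of 2.42 over Spl-primed and 2.15 over parental cells. These ratios leave out the counting error of the 7 counts, and no library held more than 3, so they set no firm lower bound. Fitted without a filter on low counts, Saa1 did not pass against Spl-primed (adjusted p = 0.205) or parental cells (adjusted p = 0.0665; edgeR). Saa2 counts were 4, 3, 3 and 1 in Tu-primed, 1, 2, 0 and 1 in Spl-primed, and 0, 0, 1 and 3 in parental libraries. The 2 genes are near copies: 30.1% of the 31-base words of the shorter Saa1 transcript also occur in Saa2 or Saa3 transcripts, so the division of reads between them is uncertain. Summed, they held 18 counts in Tu-primed, 4 in Spl-primed and 4 in parental cells, and without a filter on low counts the sum had a log2 fold change of 2.10 over Spl-primed (SE 0.85, adjusted p = 0.215) and 1.92 over parental cells (SE 0.86, adjusted p = 0.0895; edgeR), neither of which passed. Saa3 shares 5.71% of such words with its neighbours in its main transcript.

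Hp encodes haptoglobin, which binds free hemoglobin. Its counts were 6, 9, 10 and 3 in Tu-primed, 0, 0, 1 and 1 in Spl-primed, and 0, 1, 3 and 0 in parental libraries. The Tu-primed and Spl-primed counts did not overlap, and Tu-primed replicate 4 equalled the highest parental library. The summed counts of 28 against 2 gave a ratio of 14.5 between Tu- and Spl-primed cells, with an exact 95% interval of 3.67 to 126 that covers counting error only. Over parental cells the counts of 28 against 4 gave a ratio of 6.46, with an interval of 2.26 to 25.4. Fitted without a filter on low counts, Hp passed at an adjusted p of 0.0318 against Spl-primed and of 0.0229 against parental cells (edgeR). At no more than 10 counts in a library, these values rest on very few reads.

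S100a9 encodes the partner of S100a8 in calprotectin. It held 1 count in 12 libraries, in parental replicate 2, where a floor of 3 counts corresponds to at most 0.126 CPM. S100a8 itself held 37 to 99 counts per library. The pair was thus unequal in every group, and no fold is given for S100a9.

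**Figure D3:**
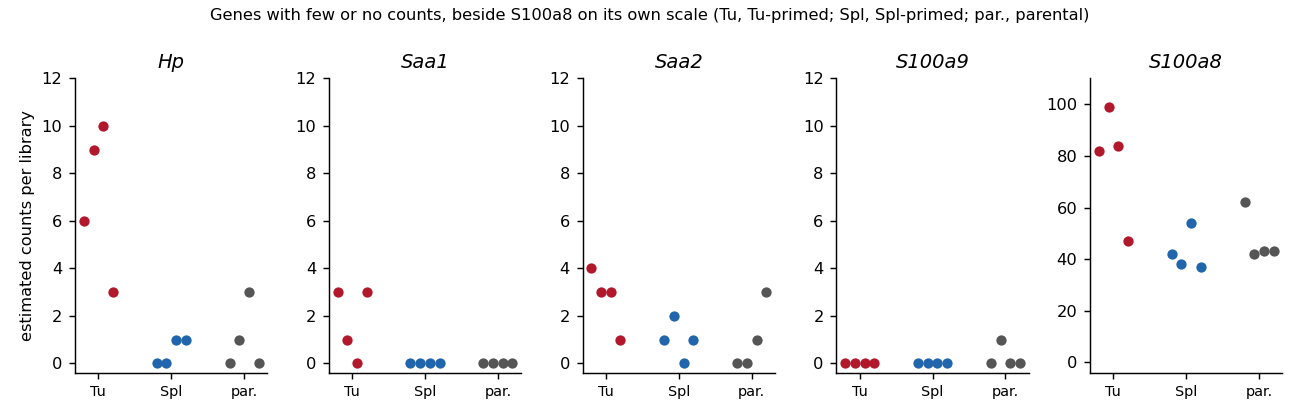
Estimated counts in each library (points, replicates 1 to 4 from left to right) for the 4 members with few or no counts, beside S100a8 on its own larger scale. Hp lay at 3 to 10 counts in Tu-primed libraries and at 0 to 3 in the others, while S100a9 had 1 count in all.

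Several members are known neutrophil products, and granulocyte transcripts were therefore counted in the same libraries. Of 25 granulocyte genes, 9 were at 0 in every library, among them Mpo, Elane, Camp, Ngp, Mmp8 and Cd177, and 17 never exceeded 3 counts. Almost the whole summed level came from Itgb2, an integrin subunit. The sum was 219 to 244 CPM in Tu-primed, 235 to 244 CPM in Spl-primed and 170 to 202 CPM in parental libraries. Without Itgb2 it was 2.57 to 5.13 CPM in Tu-primed, 2.79 to 4.03 CPM in Spl-primed and 2.92 to 3.58 CPM in parental libraries, so the groups overlapped. Most of this remainder was Cxcr2, at 1.53 to 3.73 CPM in Tu-primed, 1.63 to 3.12 CPM in Spl-primed and 1.64 to 2.39 CPM in parental libraries. The sum without Itgb2 thus largely follows 1 gene that parental cells also express. The Tu-primed and Spl-primed sums overlapped with and without Itgb2. Among Tu-primed libraries the sum without Itgb2 was highest in replicate 2 and lowest in replicate 4, as S100a8 was. Among Spl-primed libraries both were highest in replicate 3. Among parental libraries the sum was highest in replicate 2 and S100a8 in replicate 1. BC100530, a stefin gene of the list, held 2 to 23 counts in Tu-primed libraries and at most 1 elsewhere. Of 10 macrophage genes, 5 were at 0 in every library, including Adgre1 and the C1q chains. The summed level of the 10 was 6.64 to 8.23 CPM in Tu-primed, 5.41 to 6.40 CPM in Spl-primed and 4.92 to 5.66 CPM in parental libraries, so that it was highest in the Tu-primed libraries, as the members were. Of the 2 macrophage genes tested, Cd68 and Mrc1, neither was called between Tu- and Spl-primed cells by edgeR or DESeq2, and Mrc1 was higher than in parental cells by a log2 fold change of 0.94 after Tu- and of 0.59 after Spl-Gr1+CD11b+ priming. The summed level of 14 epithelial genes ran the other way, at 1961 to 2400 CPM in Tu-primed, 2451 to 2643 CPM in Spl-primed and 2727 to 4045 CPM in parental libraries, with no overlap. Of the 13 tested, 0 were called between Tu- and Spl-primed cells (edgeR; 7 were lower at an unadjusted p under 0.05, and 1 with DESeq2), and 7 were lower and 2 higher in Tu-primed than in parental cells, where 28% of all genes were lower and 31.2% higher, among the lower the luminal keratins Krt8 (-0.78) and Krt18 (-0.68). Most of the epithelial sum came from the keratins Krt8, Krt18 and Krt7, at means of 871, 681 and 279 CPM in Tu-primed cells. The 2 genes higher than in parental cells were Cldn4 (0.41) and Esrp1 (0.24). Krt8, at 820 to 1886 CPM, and Epcam, at 62.2 to 91.9 CPM, were detected in every library, whereas basal Krt5 was at 0. The part of these marker differences in the members' results was not tested. As these are bulk libraries, more cells expressing a gene and more RNA per cell cannot be told apart.

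The 4 Tu-primed libraries were not alike. In all 6 tested members the lowest Tu-primed value was that of replicate 4. The mean of 20 interferon-stimulated genes stood 4.39, 3.84, 3.54 and 2.22 log2 units above the parental mean in Tu-primed replicates 1 to 4, and between 0.15 and 0.58 above it in Spl-primed libraries. Replicate 4 was thus lowest for the members and for the interferon-stimulated genes alike, and whether 1 follows from the other was not tested. Cell type markers also set replicate 4 apart among Tu-primed libraries. Its epithelial sum, which is mostly Krt8, Krt18 and Krt7, was the highest, at 2400 CPM against 1961 to 2061 CPM. Its granulocyte sum without Itgb2, which is mostly Cxcr2, was the lowest, at 2.57 CPM against 3.44 to 5.13 CPM. Its macrophage sum, at 7.39 CPM, lay among the others. The part of these differences in the members' levels was not tested. Saa3 stood 1.83 log2 units above the parental mean in that library, against 2.41 to 2.62 in the other 3. Without replicate 4 the log2 fold changes of the members over Spl-primed cells ranged from 0.85 for Slpi to 2.48 for Saa3.

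**Figure D4:**
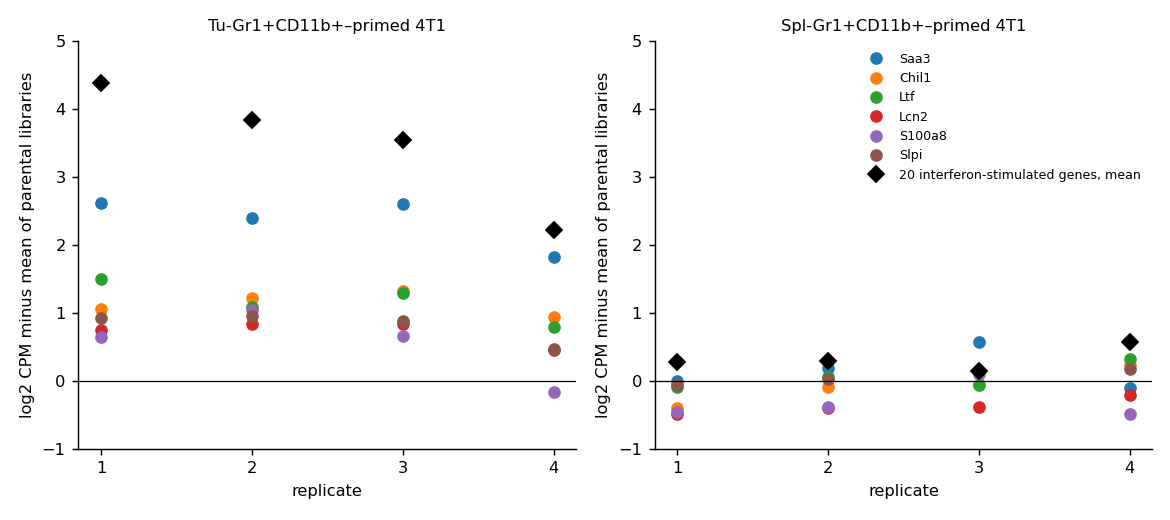
Log2 CPM of each tested gene in each primed library minus the mean of the 4 parental libraries, with the mean of 20 interferon-stimulated genes as diamonds. Among Tu-primed libraries replicate 4 was lowest for every gene and for the diamonds (2.22), and Spl-primed points lay on both sides of 0, from -0.49 for Lcn2 to 0.58 for the diamonds.

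The members were alike in their pattern over the 12 libraries, as a description with no test, since the 3 groups make up much of that pattern. Pearson's r of log2 CPM between pairs of the 6 tested members ran from 0.74 for Chil1 with S100a8 to 0.97 for Ltf with Slpi. The genes most like Slpi among all those tested were Zbp1 (r = 0.99), Slfn2 and Parp9, and those most like Ltf were Slfn2 (r = 0.98), H2-T22 and Irf7. The nearest genes to Saa3 were Ackr3 (r = 0.99), Muc1 and Stfa3, and to Chil1 were Clu (r = 0.97), Socs3 and Phyh. Lcn2 was nearest to Mdga1 (r = 0.96) and Upp1. S100a8 was nearest to Tmsb4x (r = 0.96), Tpd52l1 and Acadl.

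Of 31 further acute-phase genes, 10 could be tested, and 8 were higher and 0 lower in Tu- than in Spl-primed cells, where 4.66% of all genes were higher, with a median log2 fold change of 0.61 beside -0.01 over all genes. At an unadjusted p under 0.05, 9 were higher and 0 lower, and DESeq2 called 8 and 0. The largest rises were those of Cfb, complement factor B (3.04, adjusted p = 0.000179), Steap4, a metalloreductase (2.30, adjusted p = 3.64e-06) and Lbp, the lipopolysaccharide-binding protein (1.37, adjusted p = 0.0263; edgeR). Cfb read 1.81 CPM in Tu-primed, 0.216 CPM in Spl-primed and 0.219 CPM in parental cells on average. Lbp read 0.819, 0.312 and 0.126 CPM. Both may have passed the low-count filter only through the Tu-primed group, which favours a call of higher. They are among the genes counted as higher in both Tu-primed comparisons, so those counts are not free of the filter. Ceruloplasmin, Cp, was named after its value was seen because it was abundant like Lcn2: it read 969 CPM in Tu-primed and 654 CPM in Spl-primed cells on average, a log2 fold change of 0.57. Against parental cells 7 of the 10 were higher and 0 lower in Tu-primed cells, by either tool, where 31.2% of all genes were higher and 28% lower. In Spl-primed against parental cells 3 were higher and 3 lower, near the shares over all genes of 25.7% and 22.5%.

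Of 26 other antimicrobial genes, 8 were tested, with 3 higher and 0 lower in Tu- than in Spl-primed cells, where 4.66% of all genes were higher (at an unadjusted p under 0.05, 4 and 1; with DESeq2, 4 and 1). The 3 were Nos2, the inducible nitric oxide synthase (1.50), Rnase4, a secreted ribonuclease (0.64), and Wfdc2, a whey-acidic-protein family member like Slpi (0.42). Of 9 other S100 genes tested, 0 were called in either direction between Tu- and Spl-primed cells (edgeR), with log2 fold changes between -0.22 and 0.63. At an unadjusted p under 0.05, 2 were lower and 0 higher, and DESeq2 called 1 lower. Against parental cells 6 of the 9 were lower and 1 higher in Tu-primed cells, where 28% of all genes were lower and 31.2% higher. In Spl-primed against parental cells 5 of the 9 were lower and 1 higher, where 22.5% and 25.7% of all genes were.

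Among 29 tested receptors, kinases and transcription factors that act on acute-phase genes, 8 were higher and 1 lower in Tu- than in Spl-primed cells, where 4.66% of all genes were higher and 2.97% lower, with a median log2 fold change of 0.14 beside -0.01 over all genes. Osmr, the oncostatin M receptor subunit, rose by 2.04 (adjusted p = 2.27e-06) and Cebpd, a C/EBP factor, by 1.77 on the log2 scale (adjusted p = 0.000173; edgeR). Nfkb2, an NF-kappaB subunit, fell by 0.26 (adjusted p = 0.0499). Stat3 (1.12) and its feedback inhibitor Socs3 (1.15), named after their values were seen because they belong to the IL-6 pathway, were higher too. The shared IL-6-family subunit Il6st (0.01) and the IL-6 receptor Il6ra (0.01) were not called and were also named after their values were seen. Of 15 tested receptors or partners of the secreted proteins, 1 was higher and 0 lower (at an unadjusted p under 0.05, 5 and 1; with DESeq2, 4 and 0). Of all 12555 genes it tested, edgeR called 4.66% higher. DESeq2 called 792 genes higher, starting from the 18689 genes with any count before its own filter. The 1 receptor gene called by edgeR was Il13ra2, described as a receptor of the Chil1 product (1.52, adjusted p = 0.0404). It read 0.652 CPM in Tu-primed, 0.220 CPM in Spl-primed and 0.178 CPM in parental cells on average. It may have passed the low-count filter only through the Tu-primed group, which favours a call of higher, so nothing is read from this call about the list.

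The transcript make-up was compared for the 2 abundant members. The main coding transcript of Lcn2 held 96.2% of its reads in Tu-primed, 96.5% in Spl-primed and 96.2% in parental cells. That of Slpi held 85.8% (SD 2.43), 82.1% (SD 2.57) and 86.5% (SD 2.66), n = 4 each. None of the 6 comparisons passed an exact two-sided permutation test of the means, with the lowest p at 0.0571 (Slpi, Spl-primed against parental, adjusted p = 0.257), where the smallest p possible is 0.0286. A small fraction of Lcn2 reads differed with co-culture. Reads on 3 Lcn2 transcripts annotated as retaining an intron, chosen after their values were seen and not tested, made up 0.783%, 1.03%, 0.978% and 0.688% of the gene in Tu-primed cells and 0.822%, 0.729%, 1.05% and 1.14% in Spl-primed cells. In parental cells they made up 0.0772%, 0.174%, 0.135% and 0.149%. Both primed groups thus lay above every parental library and overlapped with each other. Over all genes, retained-intron transcripts held 3.06% to 3.64% of reads in the primed libraries and 2.05% to 2.28% in parental ones.

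**Figure D5:**
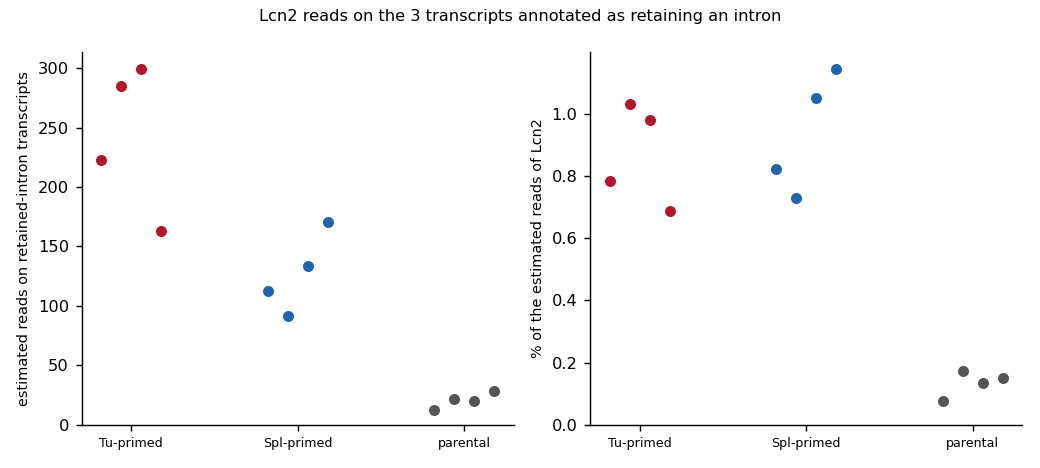
Estimated reads on the 3 Lcn2 transcripts annotated as retaining an intron, as a number (left) and as a percent of the estimated reads of Lcn2 (right), in each library. The percent lay between 0.688 and 1.14 in the 8 primed libraries and at no more than 0.174 in the 4 parental libraries.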

How the data were processed

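Total RNA was isolated from 12 wells of 4T1 cells lysed in place and sequenced with a stranded kit, per the labels. The submitters' processing notes name FastQC, Trimmomatic 0.39, Salmon 1.4.0 and GRCm38 (mm10); whether quantification used strand is not given in the sources used here. The authors deposited, for each library, estimated counts and TPM per transcript. The deposited table of normalized values for the whole series was not used here. Estimated counts were summed per gene with the GENCODE M21 annotation, which held 116021 of 117081 transcripts, and rounded to whole numbers; transcripts without an entry held 0.326% to 0.419% of reads. TPM values, as the authors deposited them, were summed per gene.

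Differences were tested with edgeR 4.0.16 (R 4.3.3): low-count filter (filterByExpr, leaving 12555 genes), TMM scaling, 1 quasi-likelihood fit of 3 groups over 12 libraries and Benjamini-Hochberg adjustment over all genes tested, with a threshold of 0.05. Intervals take the SE and 9 residual degrees of freedom. The fit was tested on simulated data. Alternatives used DESeq2 1.42.0, limma 3.58.1 (voom), other scalings, filters and thresholds, and left out each library. Transcript shares were compared by exact permutation (scipy 1.17.1) for tested members with at least 100 counts in every library and more than 1 transcript. Every member is named; from each other list except cell type markers, up to 3 rises and 3 falls called between Tu- and Spl-primed cells are named by size, and for likeness the 3 genes of highest r; some genes that this rule selects are not reported here. The members and lists were chosen with earlier results of these data known. Promoter sequences are from RefSeq.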

Additional observations from a re-analysis of the deposited data

Results flagged for a closer look

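Lcn2 was called in opposite directions against parental cells in the primed groups, higher after Tu- and lower after Spl-Gr1+CD11b+ priming, and the difference between these effects, tested directly as Tu-primed against Spl-primed, was 1.09 on the log2 scale. The fall after Spl-Gr1+CD11b+ priming was not called without parental replicate 4 (adjusted p = 0.0547, edgeR), and in TPM the Spl-primed minus parental difference was 0.04 log2 units, or -0.35 less the median shift over all genes. S100a8 in Spl-primed replicate 3, at 1.96 CPM, stood apart from the other 3 libraries of its group, with a gap of 0.862 of the group's range. It was the 1 such value among 18 groups of 4 examined, where chance gives about 1 in 20.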

How the results depend on the processing

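Of 18 log2 fold changes (6 genes in 3 comparisons), 11 kept their side of the threshold under all 24 alternatives, and no called value changed sign under them. Uncalled values in Spl-primed against parental cells did change sign, between -0.78 and 0.30 for Ltf and between -0.19 and 0.04 for Chil1. The exceptions beyond those given above for S100a8, Lcn2 and Ltf were S100a8 against parental cells with limma-voom (adjusted p = 0.0665) and with DESeq2 and length offsets (adjusted p = 0.0638), S100a8 against both groups at an adjusted p of 0.01, Lcn2 in Spl-primed against parental cells at that threshold, and S100a8, Lcn2 and Slpi where a log2 fold change over 1 was also required and theirs was smaller. With that requirement 3 members were higher in Tu-primed than in parental cells, and 0 were lower in Spl-primed than in parental cells, as also at an adjusted p of 0.01 and without parental replicate 4. Leaving out 1 library at a time gave 5 to 6 members higher in Tu-primed cells against each other group and 0 to 1 lower in Spl-primed against parental cells. Against parental cells the median gene differed by 0.46 (Tu-primed) and 0.39 (Spl-primed) log2 units in TPM. Differences over parental cells were more positive in TPM than in CPM except for Ltf in Spl-primed cells, and between Spl-primed and parental cells their sign differed for Lcn2 (0.04 in TPM, -0.37 in CPM), S100a8 (0.08, -0.32), Chil1 (0.27, -0.08) and Ltf (-0.33, 0.06). With the shared replicate number as a block, 6 members were higher and 0 lower in Tu-primed against Spl-primed and against parental cells, and 1 was lower in Spl-primed cells, so no member's call changed. The numbers did not pair the samples: deviations of same-numbered libraries correlated at -0.164 to 0.148, over 0.1 in 2 of 12 pairs, and 7 of 24 best matches were with the same number. Below about 10 counts per library (Saa1, Saa2, Hp, S100a9) only large differences could be seen.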
